A study of Mus musculus with 8 samples.

Results

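Histone RNAs were followed through meiotic maturation of mouse oocytes. Histone genes were taken by symbol, from the prefixes of the replication-dependent clusters (Hist1h to Hist4h, H2ac, H2bc, H3c, H4c, H4f and the H1f series) and of the variants (H1f, H2af, H2az, H2ax, H2bf and H3f), without pseudogene symbols ending in -ps. The rule found 38 of the 17870 genes listed in any table. Of these, 27 were classed as replication-dependent and 10 as variants, and 1 (H3f3aos) is an antisense transcript that shares the prefix and was kept out of both classes. A total of 33 were listed in both the control and the injection tables, 4 in the control tables only (H3c8, H4f16, Hist1h2bp and H3f3aos) and 1 in the injection tables only (H2ac11).

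Replication-dependent histone genes lie in clusters, have no introns as a rule, and are transcribed for DNA replication. Their RNA ends in a conserved stem-loop in place of a poly(A) tail, and the stem-loop is bound by SLBP, which takes part in its processing and translation. Variant histone genes lie alone, most of them contain introns, and their RNA carries a poly(A) tail. Growing oocytes store histone RNA and protein for the first cell cycles of the embryo, and H1f8 encodes the linker histone of the oocyte (H1foo).

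The labels state 3 samples for each group, of which 2 per group were analysed here. These were 8 Smart-seq2 libraries of 15 oocytes each, from an outbred ICR stock for which the methods give females 6 weeks old. GV oocytes are arrested at prophase with an intact nucleus (the germinal vesicle). MII oocytes had been matured in culture to the second meiotic arrest, and both control groups are labelled WT. Btg4wt and Btg4tm were MII oocytes after microinjection, at the fully grown stage, of RNA for Myc-tagged wild-type BTG4, an adaptor of the CCR4-NOT deadenylase, or for a mutant with 3 adjacent phosphorylation sites changed to alanine. These oocytes kept their own Btg4 gene. Nothing in the labels says that libraries of a group came from separate mice, so p-values measure the spread between libraries, which may be technical.

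Reverse transcription started from an oligo(dT) primer, which takes RNA through its poly(A) tail. The deposited values are TPM, shares of a library after correction for gene length, and they keep no sequencing depth. Fewer molecules per oocyte and shorter tails cannot be told apart in such values, nor can fewer expressing cells and less RNA per cell. The TPM were scaled between libraries by the median of ratios (factors 0.948 to 1.11) and are called scaled TPM. Of 12 cumulus and granulosa cell markers 6 were listed, while Amh, Foxl2, Has2, Ptx3, Tnfaip6 and Inhba were not. Their summed level was 35.8 and 36.0 scaled TPM in GV oocytes, 46.5 and 50.3 in MII oocytes, 47.3 and 48.6 in Btg4wt and 37.8 and 41.8 in Btg4tm, but the markers differed among themselves. Inha, the inhibin alpha subunit of granulosa cells, was called lower in MII than in GV (log2 fold change -1.72, adjusted p = 0.00478) and higher in Btg4tm than in Btg4wt (1.74, adjusted p = 0.00615), as H2az2 and H2ax were. Cyp19a1, Kitl and Nr5a2 went the other way and were not called. They gave 0.63, 0.95 and 0.27 in MII over GV and -0.23, -0.76 and -0.87 in Btg4tm over Btg4wt. Fshr was listed in the injection tables only, at 0.0587 and 0.157 scaled TPM in Btg4wt and 0.473 and 1.49 in Btg4tm. The part of these markers in the results was not tested. All 11 oocyte markers were listed, with sums of 25505 to 32577 scaled TPM. Btg4 RNA stood at 5792 and 6003 scaled TPM in MII oocytes, at 5178 and 5510 in Btg4wt and at 3725 and 4068 in Btg4tm oocytes, so that neither injected group was above MII in RNA. The paper's immunoblots showed both injected proteins, and its authors wrote that endogenous BTG4 seemed reduced. These RNA values do not measure the injected dose or the protein.

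The annotated 3′ ends bear on what an assay that starts at poly(A) can take. They were read from GENCODE M21 transcripts on GRCm38, the authors' genome build with an earlier annotation, where all 38 genes were found. The histone stem-loop (6 bases of stem, 4 of loop and 6 of stem, 16 in all) was present in 21 of 27 replication-dependent genes and in 1 of 10 variants, H2ax. It was present in 16 of 21868 other protein-coding genes (0.0732%). The stem-loops below, on the sense strand and with the 16 bases in capitals, are those of the genes that changed in the comparisons, with H2ac11, which one injected group lacked.
H2ax (chr9:44335235-44335260, plus strand): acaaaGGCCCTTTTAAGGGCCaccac
H2bc8 (chr13:23571838-23571863, plus strand): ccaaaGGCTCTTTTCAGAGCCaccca
H2bc12 (chr13:22036295-22036320, plus strand): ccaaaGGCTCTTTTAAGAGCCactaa
H4c1 (chr13:23760795-23760820, minus strand): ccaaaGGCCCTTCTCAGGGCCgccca
H4c9 (chr13:22040961-22040986, minus strand): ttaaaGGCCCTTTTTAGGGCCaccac
H2ac11 (chr13:22042478-22042503, minus strand): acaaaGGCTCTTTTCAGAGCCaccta

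The 6 stem bases paired fully in every one of the 22 genes with a match. The form printed for H2bc8 was the commonest, with 11 genes, and it was also the form in H2ac11. The forms of H2ax and H4c1 were each found in 1 gene. In the sets printed, both H4 genes have GGCCC at the 5′ side of the stem and the H2A and H2B genes of the cluster have GGCTC.

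The annotated transcript did not stop at the stem-loop in most of these genes. It ran more than 100 bases further in 16 of the 21 replication-dependent genes and ended within 50 bases in 5. A poly(A) signal (AATAAA or ATTAAA in the last 50 bases of a transcript) was found in 8 of 27 replication-dependent genes and 8 of 10 variants. In the longest transcript of each gene it was found in 25.9% of replication-dependent genes, 70% of variants and 66.3% of 13663 tested genes. The annotation thus holds histone transcripts that pass the stem-loop, and 7 replication-dependent genes carry both features. In Hist1h2bp, which is among them, the stem-loop and the signal lie on different transcripts. The signals of the variants and of the H4 genes that the results turn on are printed with the signal in capitals.
H1f8 (chr6:115950202-115950231, plus strand): tcataatttatcAATAAAgactttgtattc
H2ax (chr9:44336031-44336060, plus strand): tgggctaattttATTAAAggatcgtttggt
H2az1 (chr3:137866885-137866914, plus strand): ctctgcttactaATTAAAcagtgcatctgt
H2az2 (chr11:6427240-6427269, minus strand): caaatgcacagaAATAAAgaaactagcact
H3f3a (chr1:180800836-180800865, minus strand): aatttgaaaaatAATAAAagtaccaataga
H3f3b (chr11:116021987-116022016, minus strand): ataggccttacaAATAAActagtaagtttg
H4c1 (chr13:23760703-23760732, minus strand): agaaattgagtaAATAAAccttgagtgcct
H4c9 (chr13:22040639-22040668, minus strand): ggttctgtttacATTAAAagtattctatgc

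H2ax has both kinds of end, with its stem-loop 822 bases before the transcript end. In H4c1 the stem-loop lies 108 bases before the end and in H4c9 330 bases. In H2bc8, H2bc12 and H2ac11 the transcript ends 155, 30 and 23 bases after the stem-loop with no signal. The annotated H2bc4 transcript, 1156 bases from exons between 23684199 and 23692908 on the plus strand of chromosome 13, holds neither feature. The annotated transcripts of H2ac1, H2bc1 and H1f1 hold neither as well, but they are short, with 390, 384 and 741 bases. How far they reach past the coding region was not checked, so both features may lie outside the annotated sequence. A cytoplasmic polyadenylation element (TTTTAT or TTTTAAT in the last 100 bases, sense strand only) was present in the longest transcript of 30% of variants, 7.41% of replication-dependent genes and 16.9% of tested genes. H1f8 and H2az2 have one, as does H2ax, where the TTTTAT overlaps the ATTAAA signal. A shorter transcript of H2az1 holds a TTTTAAT 89 bases before its end. A match is a run of letters in the annotation and not a measured site.

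Variants held nearly all histone TPM in these oligo(dT)-primed libraries. Such a primer may miss RNA without a poly(A) tail, and reads of shared sequence can be lost in counting. The shares below are thus not the make-up of all histone RNA in the oocyte. In GV, 2.04% and 2.32% of histone TPM came from replication-dependent genes, in MII 0.803% and 0.820%. The share was 0.973% and 0.931% in Btg4wt and 1.09% and 1.58% in Btg4tm. The sum over replication-dependent genes was 457 ± 13.7 scaled TPM (SD, n = 2) in GV, 296 ± 0.886 in MII, 308 ± 7.28 in Btg4wt and 361 ± 80.1 in Btg4tm. The sum over variants was 20561 ± 1256 in GV, 36154 ± 449 in MII, 32023 ± 1778 in Btg4wt and 26802 ± 1027 in Btg4tm (SD, n = 2). The variant sum was carried by H1f8, with 83.2% to 88% of it in every library, followed by H3f3b with 9.79% to 13.6%. Among replication-dependent genes, H2ac1 (37.3% to 58%) and H2bc4 (8.37% to 32.1%) held most of the sum.

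**Figure D1:**
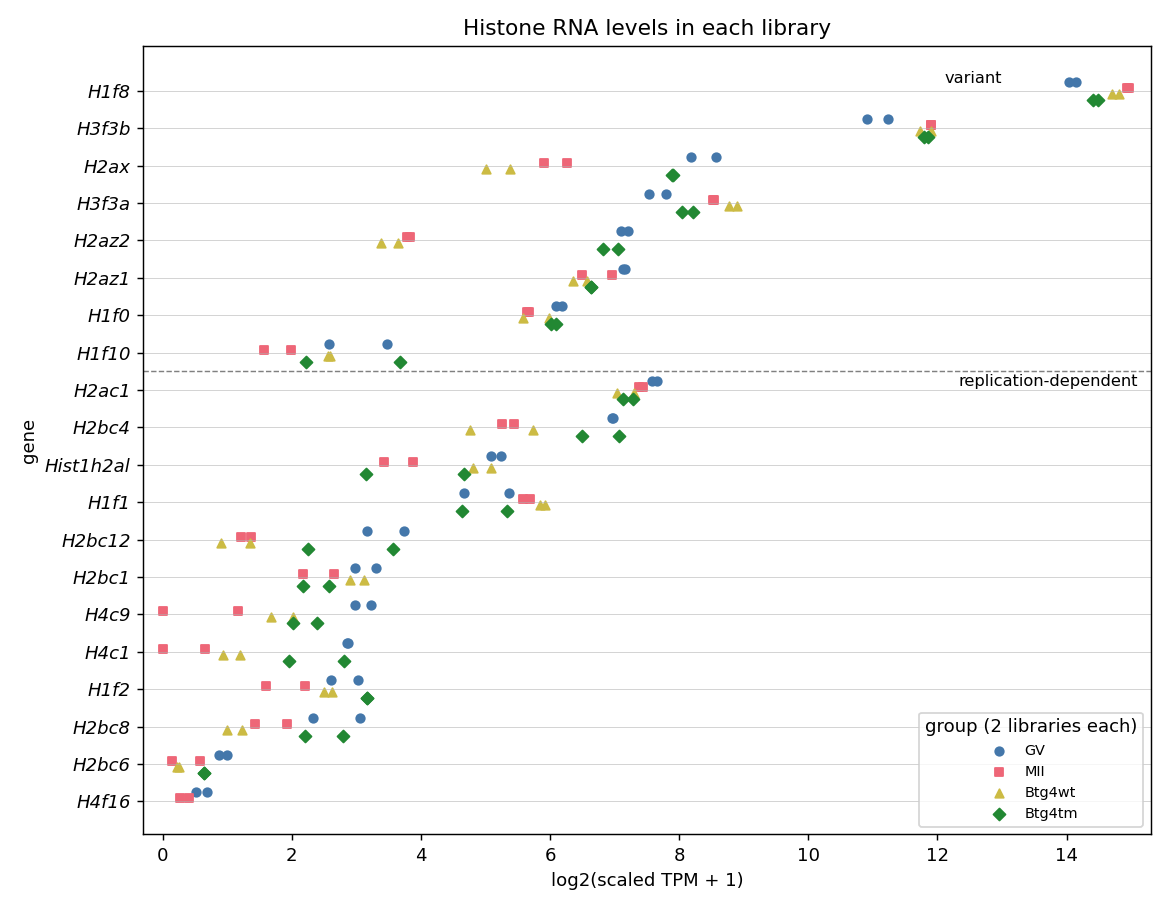
Levels of the 20 named histone RNAs in each library, as log2(scaled TPM + 1) on the x axis, with 2 points per group and gene and variants above the dashed line. H1f8 lies farthest right, and the MII and Btg4wt points of H2az2, H2ax, H2bc4 and H2bc12 lie left of the GV and Btg4tm points. H4f16 was listed in the control tables only.

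The first comparison, MII with GV, asks which RNAs changed during maturation. Calls rest on limma, with p-values adjusted by Benjamini and Hochberg's method under 0.05 and a log2 fold change, on log2(scaled TPM + 1), over 1 in size. Among all 13968 tested genes 24.0% were called lower and 12.5% higher in MII. Of 10 variants, all tested, 3 were called lower (H2az2, H2ax and H1f10) and 0 higher. Of 19 tested replication-dependent genes, out of 27, 6 were called lower (H4c1, H4c9, H2bc12, H2bc4, Hist1h2al and H2bc8) and 0 higher. Without the fold threshold, 4168 of the 13968 genes had an adjusted p under 0.05 on the higher side. Among them were 3 of the 10 variants, namely H1f8, H3f3a and H3f3b, and 0 of the 19 replication-dependent genes. Scaled to the mitochondrially encoded genes, which moved the median of all genes to -1.74, 81.6% of all genes were called lower, and so were 10 of 10 variants and 18 of 19 replication-dependent genes. The median log2 fold change was -0.72 over the replication-dependent genes, -0.25 over the variants and -0.00 over all genes.

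The second comparison, Btg4tm with Btg4wt, asks what the loss of the phosphorylation sites changed. Among all genes 18.1% were called higher and 7.94% lower in Btg4tm. Of the 10 variants 2 were called higher (H2az2 and H2ax) and 0 lower. Of the 19 replication-dependent genes 4 were called higher (H2bc12, H2bc4, H2bc8 and H4c1) and 0 lower. All of these had also been called lower in MII than in GV, a comparison with no library in common, as had 92.5% of all genes called higher in Btg4tm. Over all genes, 70% of those called lower in MII were called higher in Btg4tm, against 4 of 6 replication-dependent genes and 2 of 3 variants. Without Btg4tm replicate 2 the replication-dependent genes had 2 called higher and 2 lower, beside 17.8% and 9.31% of all genes. With mitochondrial scaling (median of all genes 0.88), 9 of 19 replication-dependent genes and 7 of 10 variants were called higher, beside 43.6% of all genes. The median log2 fold change was 0.18 over the replication-dependent genes, 0.22 over the variants and 0.01 over all genes. In the third comparison, Btg4wt with MII, limma called 0 of 13968 genes (background 0%), and 5 replication-dependent genes and 3 variants were among 1655 genes with an unadjusted p under 0.05.

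**Figure D2:**
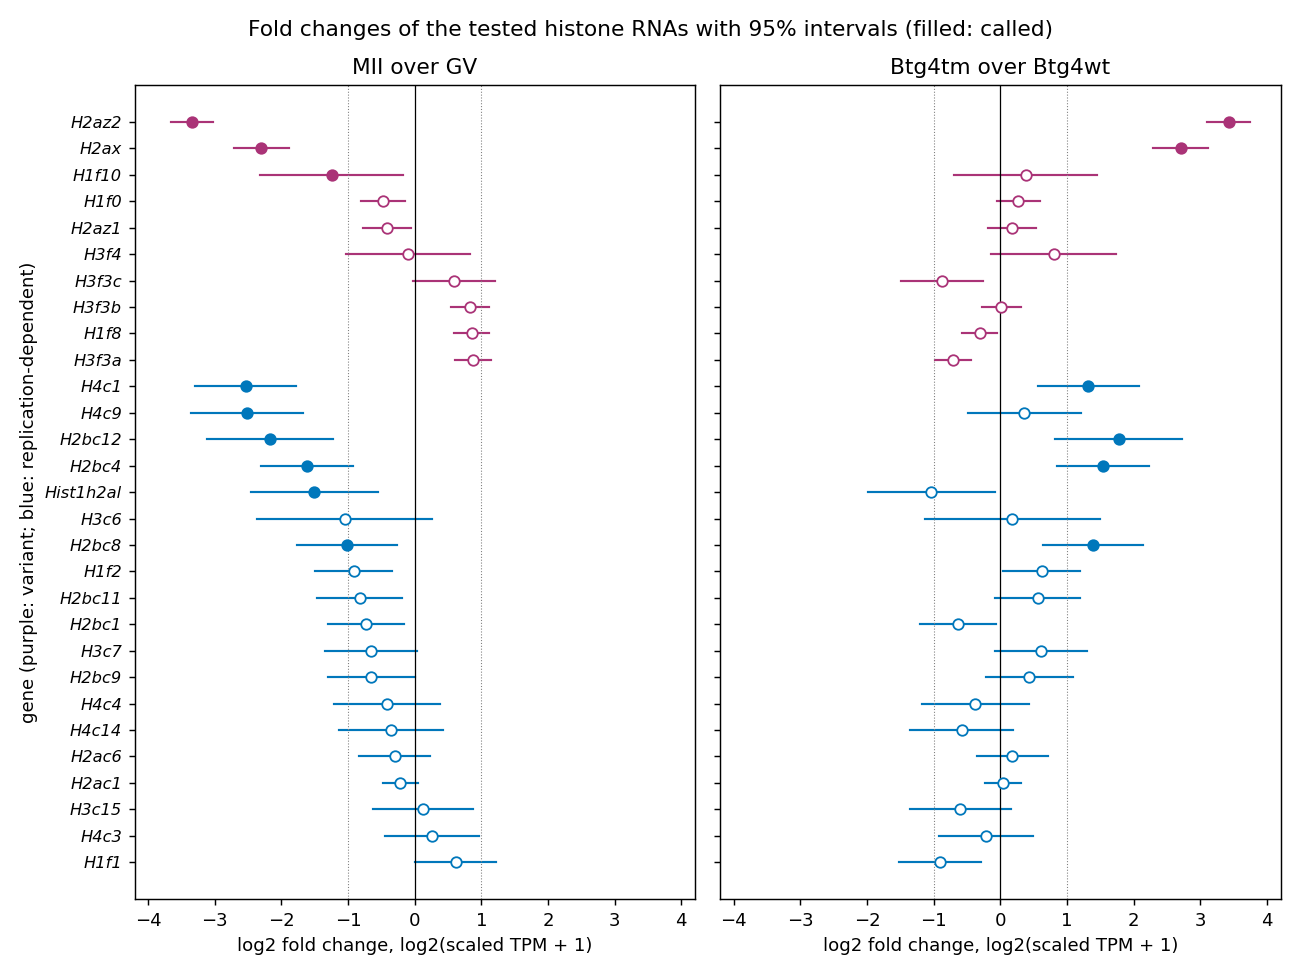
Log2 fold changes (x axis) of the 29 tested histone RNAs in MII over GV (left) and Btg4tm over Btg4wt (right), with 95% intervals from limma; filled points were called and dotted lines mark the fold threshold. H2az2 and H2ax lie at -3.34 and -2.30 on the left and at 3.42 and 2.70 on the right, while H2az1 lies at -0.41 and 0.17.

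The shared sequence of histone genes may bear on these counts. The authors dropped reads with a mapping quality under 10, so a gene whose sequence recurs elsewhere can lose reads. The share of 50-base stretches of the annotated transcripts that occur in no other gene was under 80% in 17 of 27 replication-dependent genes and 3 of 10 variants. It was under 80% in all 6 replication-dependent genes called lower in MII, from 25.8% in H2bc12 to 71.1% in H4c9. With members of at least 80% alone, 0 of 7 tested replication-dependent genes were called in either comparison. Among all genes, 24.0% were called lower in MII and 18.1% higher in Btg4tm. Of the 7, H1f2 (91.5% unique) gave -0.91 in MII over GV (adjusted p = 0.0131 by limma), under the fold threshold, which it passed under some alternatives given below. H2ac6, H2bc9, H4c14 and H4c4 of the 7 had GV means of only 0.671 to 1.36 scaled TPM. At such levels a fall of 1 on log2(scaled TPM + 1) was hardly possible. The part of shared sequence in the calls was not tested. Given their shared sequence, the values of the 6 called genes are uncertain as levels of single genes. H2az2 (100%), H2ax (90.3%), H1f10 (86%) and H1f8 (100%) rest mostly on sequence of their own. Counting took no account of strand, and exons of other genes covered 33.1% of the exon bases of H2ac1, 32.2% of Hist1h2al, 22.8% of H3f3a, 19.5% of H1f10 and 10.2% of H2ax, so reads of these genes and of their overlapping partners cannot be fully told apart.

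**Figure D3:**
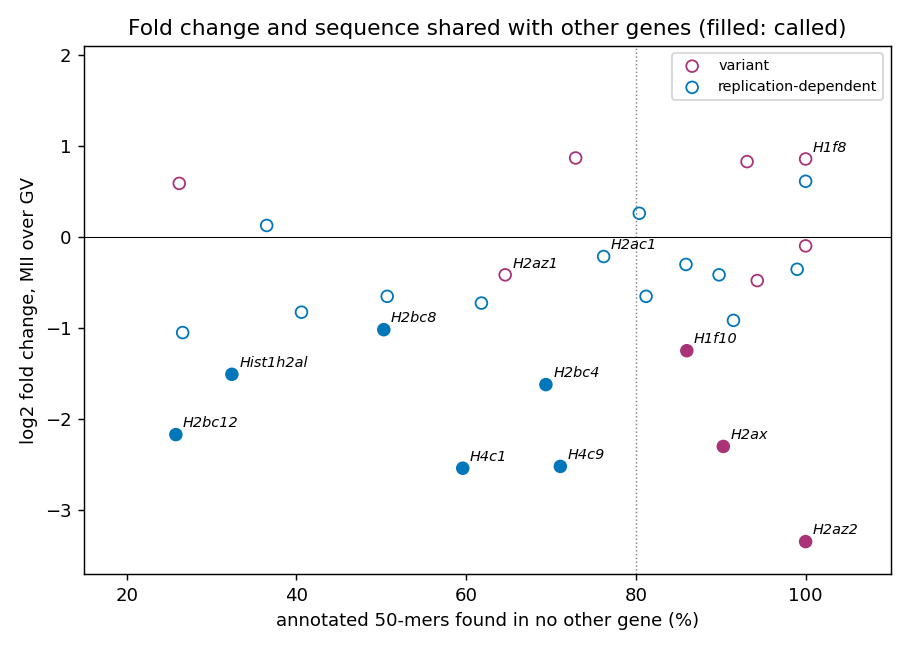
Log2 fold change of MII over GV (y axis) against the percentage of annotated 50-base stretches found in no other gene (x axis), for the 29 tested histone RNAs; filled points were called. All 6 called replication-dependent genes lie left of the dotted line at 80%, and the 3 called variants lie right of it.

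H2az2 and H2az1 encode the 2 forms of H2A.Z, the H2A variant found at promoters and regulatory elements, and H2az2 passed the test in both comparisons where H2az1 was called in neither; the difference between the genes was not itself tested. H2az2 (chromosome 11, 6427229 to 6444443, minus strand) had 146 and 137 scaled TPM in GV, 12.8 and 13.3 in MII, 11.5 and 9.46 in Btg4wt and 112 and 132 in Btg4tm. The GV and Btg4tm libraries were high, the others low, and no low library reached a high one. H2az2 fell by 3.34 on the log2 scale from GV to MII (SE 0.14, adjusted p = 8.04e-07), a 10.8-fold difference of group means. It was 11.6-fold higher in Btg4tm than in Btg4wt (log2 fold change 3.42, SE 0.14, adjusted p = 1.40e-06).

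H2az1 (chromosome 3, 137864487 to 137866922, plus strand) had 138 and 142 scaled TPM in GV, 89.3 and 124 in MII, 94.6 and 80.6 in Btg4wt and 98.0 and 98.3 in Btg4tm. Its libraries thus stayed within 80.6 to 142. The log2 fold change was -0.41 in MII over GV (95% interval -0.77 to -0.05, adjusted p = 0.0471, under the fold threshold) and 0.17 in Btg4tm over Btg4wt (-0.19 to 0.53, adjusted p = 0.407). The ratio of H2az2 to H2az1 was 1.06 and 0.962 in GV, 0.143 and 0.107 in MII, 0.121 and 0.117 in Btg4wt, and 1.14 and 1.34 in Btg4tm. This ratio is set within each library, so no scaling between libraries enters it. Only 64.6% of the 50-base stretches of H2az1 were unique, so the absolute size of the ratio is uncertain.

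H2ax encodes H2A.X, the variant phosphorylated around DNA breaks. H2ax (chromosome 9, 44334694 to 44336077, plus strand) had 291 and 378 scaled TPM in GV, 75.4 and 58.8 in MII, 31.1 and 40.8 in Btg4wt and 239 and 235 in Btg4tm. The groups did not overlap, and every GV library was above every MII library. H2ax fell by 2.30 from GV to MII (SE 0.18, adjusted p = 1.66e-05) and was 6.6-fold higher in Btg4tm than in Btg4wt (log2 fold change 2.70, SE 0.18, adjusted p = 1.24e-05). Between Btg4wt and MII, where no libraries overlapped either, the value was -0.88 (SE 0.18, adjusted p = 0.194) and did not pass. It was the only variant with a stem-loop, printed above with its poly(A) signal.

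H1f8 (chromosome 6, 115944938 to 115950236, plus strand) was the first or second gene of every library by TPM, with 1.87% to 3.13% of the listed total. It had 18213 and 16787 scaled TPM in GV, 32051 and 31393 in MII, 26753 and 28780 in Btg4wt and 23042 and 21692 in Btg4tm. GV oocytes were lowest and MII oocytes highest, with the injected groups between them. The log2 fold change was 0.86 in MII over GV (SE 0.11, adjusted p = 2.73e-04, under the fold threshold) and -0.31 in Btg4tm over Btg4wt (SE 0.11, adjusted p = 0.0514). The direction in MII over GV turns when another scaling is used. Scaled to mitochondrially encoded RNAs, which held 0.625% and 0.651% of TPM in GV but 2.71% and 2.60% in MII, H1f8 gave -1.36 while the median over all genes moved to -1.74, so that H1f8 stood 0.38 above that median. With quantile normalization H1f8 gave 0.13 (adjusted p = 0.466), below the median of all genes, which was 0.28.

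H3f3a and H3f3b encode the same protein, H3.3, which is deposited outside replication. H3f3b (chromosome 11, 116021912 to 116027962, minus strand) had 2396 and 1925 scaled TPM in GV, 3813 and 3821 in MII, 3378 and 3816 in Btg4wt and 3702 and 3537 in Btg4tm. H3f3a (chromosome 1, 180800832 to 180813943, minus strand) had 184 and 221 in GV, 372 and 367 in MII, 437 and 477 in Btg4wt and 263 and 295 in Btg4tm. Both genes were higher in every MII than in every GV library. The log2 fold changes, 0.83 for H3f3b (SE 0.13, adjusted p = 5.77e-04) and 0.87 for H3f3a (SE 0.12, adjusted p = 2.91e-04), were under the fold threshold and turned negative with mitochondrial scaling, at -1.39 and -1.34, or 0.35 and 0.40 above the median of all genes. With quantile normalization they were 0.45 for H3f3b and 0.98 for H3f3a. Between the injected groups H3f3b gave 0.01 (95% interval -0.28 to 0.30), whereas H3f3a gave -0.71 (SE 0.12, adjusted p = 0.0013), again under the threshold. H3f3a shares sequence with other genes (72.9% unique) and overlaps H3f3aos, which was counted without strand and listed at 0.198 ± 0.00822 scaled TPM in GV (SD, n = 2). The pseudogene-annotated H3f3c and H3f4 stayed between 0.601 and 8.12 scaled TPM and were not called.

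**Figure D4:**
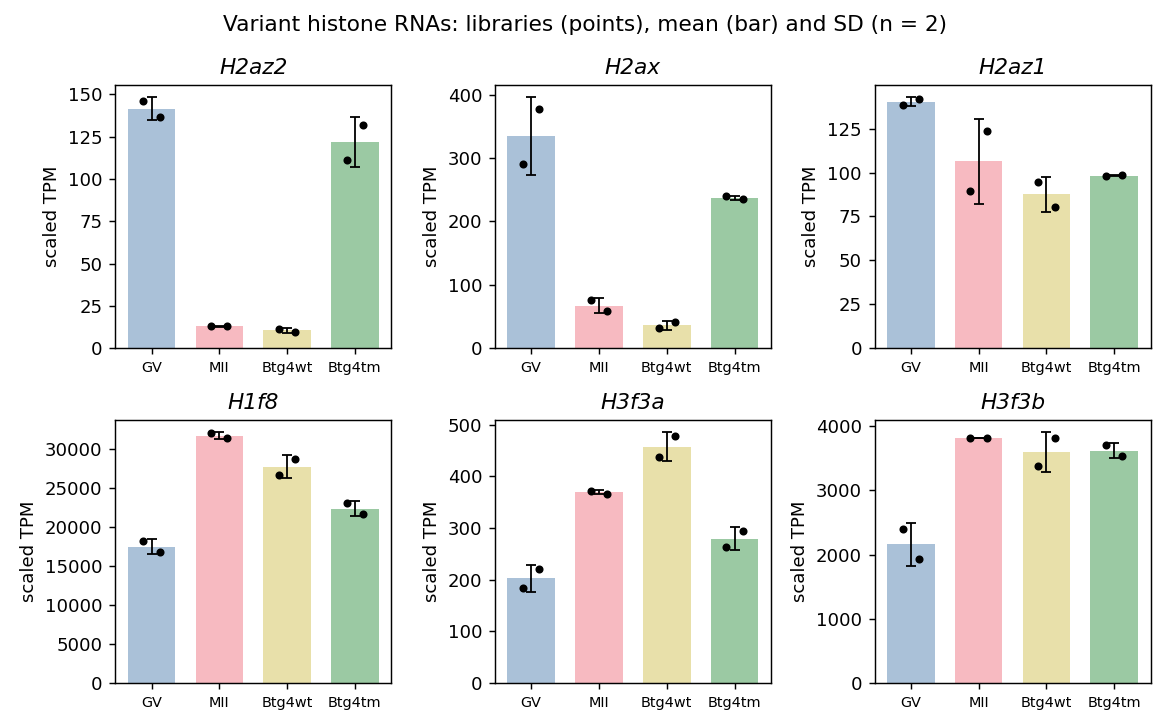
Scaled TPM (y axis, from 0) of 6 variant histone RNAs by group, as the mean of 2 libraries (bars) with the SD (error bars) and each library (points). H2az2 and H2ax are low in MII and Btg4wt and high in GV and Btg4tm, H2az1 stays between 80.6 and 142, and H1f8, H3f3a and H3f3b are lowest in GV.

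The other linker histone variants were less abundant. H1f0, the H1 of differentiated cells, had 66.9 and 71.5 scaled TPM in GV, 49.9 and 49.0 in MII, 47.0 and 62.3 in Btg4wt and 63.4 and 67.3 in Btg4tm. Its log2 fold change was -0.48 in MII over GV (SE 0.14, adjusted p = 0.0183), under the fold threshold. H1f10 (H1x) had 10.1 and 4.98 in GV, 1.98 and 2.97 in MII, 5.01 and 4.87 in Btg4wt and 3.67 and 11.8 in Btg4tm. H1f10 fell by 1.25 from GV to MII (SE 0.47, adjusted p = 0.0451), and its Btg4tm libraries spanned the Btg4wt values. The call of H1f10 was lost without GV replicate 1 (adjusted p = 0.259), MII replicate 1 (0.173) or MII replicate 2 (0.0691).

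Among replication-dependent genes, H2bc4, a core H2B gene (Hist1h2bc), was the most abundant of those that changed. It had 124 and 125 scaled TPM in GV, 37.3 and 42.7 in MII, 52.5 and 26.2 in Btg4wt and 89.4 and 134 in Btg4tm. The groups did not overlap in either comparison. H2bc4 fell by 1.62 from GV to MII (SE 0.30, adjusted p = 0.0017) and was 2.84-fold higher in Btg4tm than in Btg4wt (log2 fold change 1.53, SE 0.30, adjusted p = 0.0032). Its 50-base stretches were 69.4% unique, and 220 other genes shared some of them.

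The other H2B genes that changed were at low levels. H2bc12 had 8.0 and 12.4 scaled TPM in GV, 1.58 and 1.32 in MII, 0.874 and 1.56 in Btg4wt and 3.75 and 10.8 in Btg4tm. It fell by 2.17 (SE 0.41, adjusted p = 0.0020) and was 1.77 higher in Btg4tm on the log2 scale (SE 0.41, adjusted p = 0.0077), or 1.12 without Btg4tm replicate 2 (adjusted p = 0.0332) and 2.43 without replicate 1. H2bc8 had 7.35 and 4.02 in GV, 1.70 and 2.80 in MII, 1.35 and 1.0 in Btg4wt and 3.61 and 5.94 in Btg4tm. It fell by 1.02 (SE 0.33, adjusted p = 0.0244), a call lost without GV replicate 1 (adjusted p = 0.171) or MII replicate 1 (0.134), and was 1.39 higher in Btg4tm (SE 0.33, adjusted p = 0.0079), a call lost without Btg4tm replicate 2 (0.0525). Btg4tm replicate 1 was the lower of its group for H2bc4, H2bc12 and H2bc8 alike. H2bc6 was below the filter of 1 TPM in 2 libraries and was not tested, with 0.989 and 0.839 in GV, 0.101 and 0.495 in MII, 0.187 and 0.167 in Btg4wt and 0.552 and 0.562 in Btg4tm.

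The H4 genes that changed in MII were H4c1 and H4c9. H4c1 had 6.25 and 6.34 scaled TPM in GV, was listed at 0 in MII replicate 1 and had 0.583 in MII replicate 2, then 1.29 and 0.917 in Btg4wt and 2.90 and 6.0 in Btg4tm. It fell by 2.54 (SE 0.33, adjusted p = 2.45e-04) and was 1.32 higher in Btg4tm (SE 0.33, adjusted p = 0.0109). The second call was lost without Btg4wt replicate 2 (adjusted p = 0.0603), without Btg4tm replicate 2 (0.0672) and with a pseudocount of 0.1 (0.0995). H4c9 had 6.85 and 8.33 in GV, 1.24 in MII replicate 1 and a listed 0 in replicate 2, 3.05 and 2.21 in Btg4wt and 3.07 and 4.24 in Btg4tm. H4c9 fell by 2.52 (SE 0.37, adjusted p = 4.69e-04), while its injected groups differed by 0.36 (95% interval -0.49 to 1.2). H4c3, another H4 gene, gave 0.26 in MII over GV (-0.44 to 0.97) and was not called.

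Hist1h2al, an H2A gene that M21 annotates as a processed pseudogene, had 32.8 and 36.7 scaled TPM in GV, 13.8 and 9.73 in MII, 27.0 and 32.8 in Btg4wt and 7.90 and 24.3 in Btg4tm. It fell by 1.51 from GV to MII (SE 0.41, adjusted p = 0.0128), a call lost without GV replicate 2 (adjusted p = 0.0635) or MII replicate 2 (0.0693). It was lower in both Btg4tm than in both Btg4wt libraries, with a log2 fold change of -1.04 (SE 0.41, adjusted p = 0.0688), which did not pass; without Btg4tm replicate 2 the value was -1.79 (adjusted p = 0.00109) and without replicate 1 it was -0.29 (0.358). With quantile normalization it was -1.24 (adjusted p = 0.0337). Only 32.4% of its 50-base stretches were unique.

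The germline forms H2ac1 (TH2A) and H2bc1 (TH2B), which are known from testis and oocyte, lie as neighbours on chromosome 13. H2ac1 (23934462 to 23934851, plus strand) was the most abundant replication-dependent RNA, with 200 and 190 scaled TPM in GV, 165 and 172 in MII, 131 and 156 in Btg4wt and 139 and 156 in Btg4tm. Its log2 fold changes were -0.21 (95% interval -0.48 to 0.06) in MII over GV and 0.04 (-0.23 to 0.31) in Btg4tm over Btg4wt. H2bc1 (23933773 to 23934156, minus strand) had 6.87 and 8.90 in GV, 3.52 and 5.32 in MII, 6.50 and 7.72 in Btg4wt and 3.49 and 4.97 in Btg4tm. Its values were -0.72 (SE 0.25, adjusted p = 0.0326) and -0.64 (SE 0.25, adjusted p = 0.0615), so that H2bc1 was called in neither.

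Of the replication-dependent H1 genes, H1f1 had 24.5 and 40.3 scaled TPM in GV, 50.5 and 46.9 in MII, 56.7 and 59.9 in Btg4wt and 23.8 and 39.4 in Btg4tm. MII and Btg4wt libraries were the higher ones, the reverse of the order in H2bc4. H1f1 gave 0.61 in MII over GV (SE 0.27, adjusted p = 0.0754, and -1.55 with mitochondrial scaling, 0.19 above the median of all genes) and -0.90 in Btg4tm over Btg4wt (SE 0.27, adjusted p = 0.0223, and 0.16 with mitochondrial scaling, 0.72 below that median), and was not called. Between the injected groups it was called lower in Btg4tm without Btg4tm replicate 2 (-1.26, adjusted p = 0.00787) and with quantile normalization (-1.11, adjusted p = 0.00865), and gave -0.55 without Btg4tm replicate 1. In MII over GV it ran from 0.27 without GV replicate 1 to 0.96 without GV replicate 2. H1f2 had 5.07 and 7.17 in GV, 2.02 and 3.63 in MII, 4.62 and 5.15 in Btg4wt and 8.01 and 8.0 in Btg4tm, with -0.91 in MII over GV (SE 0.25, adjusted p = 0.0131), under the threshold. It was called lower in MII with TPM as deposited (-1.045, adjusted p = 0.00767) and with a pseudocount of 0.1 (-1.12, adjusted p = 0.0148). Leaving out 1 library gave values of H1f2 from -1.21 to -0.60.

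The remaining tested genes were H2ac6, H2bc9, H2bc11, H3c15, H3c6, H3c7, H4c14, H4c3 and H4c4. Their log2 fold changes ran from -1.05 (H3c6, SE 0.57, adjusted p = 0.142) to 0.26 (H4c3) in MII over GV and from -0.60 (H3c15) to 0.61 (H3c7) in Btg4tm over Btg4wt, and 0 of the 9 were called. The 3 H3 genes among them were thus not called. H1f3, H1f4 and Hist1h2bq were below the filter, as was H2bc6. Among genes of the control tables only, H4f16 had 0.614 and 0.434 scaled TPM in GV and 0.210 and 0.329 in MII. H3c8 had 3.04 and 3.81 in GV, a listed 0 in MII replicate 1 and 1.48 in replicate 2, which gave -1.50 (SE 0.45) in a fit of all genes of the control tables. That fit was chosen after the values were seen, and H3c8 passed the filter only through GV, so no p-value is given. Hist1h2bp ran from a listed 0 to 0.830.

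The 5 listed histone genes with symbols outside the rule were set beside these. H2aj, an H2A variant gene, had 28.6 and 24.9 scaled TPM in GV, 4.11 and 1.72 in MII, 4.24 and 2.90 in Btg4wt and 19.7 and 24.2 in Btg4tm. H2aj fell by 2.90 (SE 0.30, adjusted p = 6.87e-05) and was 2.34 higher in Btg4tm (SE 0.30, adjusted p = 3.49e-04), the order of groups seen in H2az2 and H2ax. H2bu2, an H2B gene, had 12.7 and 21 in GV, 3.43 and 4.09 in MII, 3.39 and 7.65 in Btg4wt and 5.82 and 1.67 in Btg4tm. H2bu2 fell by 1.87 in MII (SE 0.48, adjusted p = 0.00907) and gave -0.53 in Btg4tm over Btg4wt (95% interval -1.63 to 0.57). Cenpa, the centromeric H3 variant, gave 0.57 in MII over GV (adjusted p = 0.00445, under the threshold) and -0.09 in Btg4tm over Btg4wt. Macroh2a1 gave -0.83 and 0.79 (adjusted p = 0.0108 and 0.0173), under the threshold, while Macroh2a2 fell by 1.36 (SE 0.28, adjusted p = 0.0028) and gave 0.50 in Btg4tm over Btg4wt (SE 0.28, adjusted p = 0.171).

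RNAs for proteins that process or degrade histone RNA or carry histones were counted beside the histone genes. Of 52 symbols, which held both the older and the newer names of Tut4 and Tut7, 50 were listed and 48 tested. In MII over GV, 17 were called higher and 6 lower (35.4% and 12.5%, beside 12.5% and 24.0% of all genes), with a median of 0.79. In Btg4tm over Btg4wt, 4 were called higher and 11 lower (8.33% and 22.9%, beside 18.1% and 7.94%), with a median of -0.39. In Btg4wt over MII, 0 were called and 6 had an unadjusted p under 0.05. With mitochondrial scaling the split in MII over GV became 34 lower and 0 higher, beside 81.6% and 0.0501% of all genes. That in Btg4tm over Btg4wt became 1 lower and 14 higher, beside 0.494% and 43.6% of all genes.

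By role, the 3′ end processing and histone locus body genes had 5 called higher and 2 lower of 13 in MII, the decay genes 4 higher and 0 lower of 6 tested, and the chaperones and depositors 8 higher and 4 lower of 29 tested. In Btg4tm over Btg4wt these groups had 1 higher and 3 lower, 0 higher and 2 lower, and 3 higher and 6 lower.

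Slbp, whose protein binds the histone stem-loop, had 620 and 674 scaled TPM in GV, 1440 and 1475 in MII, 1302 and 1905 in Btg4wt and 1729 and 1706 in Btg4tm. It rose 2.25-fold in MII (log2 fold change 1.17, SE 0.16, adjusted p = 3.43e-04) and gave 0.13 in Btg4tm over Btg4wt (95% interval -0.25 to 0.50). Lsm10, a subunit of the U7 particle that cuts histone RNA at its 3′ end, went the other way, with 937 and 840 in GV, 56.8 and 75.6 in MII, 83.8 and 54.6 in Btg4wt and 605 and 763 in Btg4tm. Lsm10 fell 13.4-fold (log2 fold change -3.74, SE 0.22, adjusted p = 3.75e-06) and was 9.89-fold higher in Btg4tm (log2 fold change 3.31, SE 0.22, adjusted p = 1.16e-05). Casp8ap2, a histone locus body protein, had 87.3 and 83.9 in GV, 252 and 258 in MII, 229 and 230 in Btg4wt and 113 and 122 in Btg4tm, and rose by 1.56 (SE 0.09, adjusted p = 3.93e-06).

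Among the chaperones, Asf1b (H3-H4), Npm1 (core histones), Dek (H3.3) and Supt16 (of the FACT complex) were called higher in MII, by 1.07, 1.06, 1.60 and 1.12 on the log2 scale (adjusted p from 7.84e-06 to 2.39e-04). With TPM as deposited Asf1b (0.92), Npm1 (0.91) and Supt16 (0.96) came under the fold threshold, as did Asf1b (0.95), Npm1 (0.92) and Slbp (0.95) with quantile normalization and Asf1b without GV replicate 2 (0.85). Nap1l4, an H2A-H2B chaperone, had 115 and 151 scaled TPM in GV, 263 and 254 in MII, 271 and 263 in Btg4wt and 86.5 and 83.6 in Btg4tm, with 0.97 in MII over GV, just under the threshold, and a call of -1.64 in Btg4tm over Btg4wt (SE 0.13, adjusted p = 2.76e-05). Supt16 was called lower in Btg4tm as well, at -1.33 (SE 0.10, adjusted p = 1.81e-05), while Asf1b gave -0.05 (95% interval -0.37 to 0.27). With mitochondrial scaling all of the named genes of this list except Lsm10 turned negative in MII over GV, though each stayed 0.50 to 1.14 above the median of all genes. Nap1l4 and Supt16 stayed negative in Btg4tm over Btg4wt under that scaling, at -0.56 and -0.25 (adjusted p = 0.0436 and 0.319), but lost their calls.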

How the data were processed

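The authors trimmed reads with Trim Galore 0.6.10, aligned them to GRCm38 with HISAT2 2.2.0 and GENCODE vM25, counted them on exons without strand with featureCounts 2.0.6 (mapping quality of at least 10) and deposited TPM per gene symbol. The gene lengths behind the TPM and the rule for listing a gene are not given in the sources used here. Depth is unknown, so precision rests on 2 libraries per group. The listed TPM summed to 996199 to 998615 per library. Replicates correlated at 0.982 to 0.987 (Pearson) over genes.

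The 15962 genes present in both table sets were brought to one scale with median-of-ratios factors, then log2(TPM + 1) was taken. The 13968 genes that reached 1 TPM in 2 or more libraries were fitted with limma 3.58.1 in R 4.3.3 over all 8 libraries, with a mean per group and eBayes with trend. Fold changes on this scale understate changes of low genes. Calls needed an adjusted p-value under 0.05 and a log2 fold change over 1 in size. The study's methods used DESeq2 on counts, which were not used here. The same kind of fit was also run on simulated data with known changes, built from the levels and spreads of these genes.

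Genes named were a fixed set of variants and cluster genes, members with a group mean of at least 10 scaled TPM, called members, and the 8 most abundant called genes of the histone RNA and chaperone list; others, and those of the symbols outside the rule, were named after their values were seen. The members, classes and lists were chosen with earlier results of these data known, so none is independent evidence. Positions, 3′ ends and shared 50-base stretches came from GENCODE M21, and newer symbols were matched through RefSeq synonyms. The alternatives were other scalings, pseudocounts, filters, fits and thresholds, and leaving out each library.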

Additional observations from a re-analysis of the deposited data

Results flagged for a closer look

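H2ac11, a replication-dependent H2A gene, was listed in the injection tables only and so entered none of the main comparisons. It was listed at 0 in both Btg4wt libraries and had 2.76 and 2.12 scaled TPM in Btg4tm, a mean of 2.44 ± 0.453 (SD, n = 2), and this signal above the wild-type injection made it stand out. In a limma fit of all genes of the injection tables, its log2 fold change was 1.75 (SE 0.24). That fit was chosen after the values were seen, and H2ac11 passed the filter only through Btg4tm. A p-value would test the same values that flagged the gene, so none is given. No fold is given against a group listed at 0. Of its 50-base stretches 21.1% were unique and 48 other genes shared some, so its level is uncertain as that of a single gene.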

How the results depend on the processing

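Values are log2 fold changes or medians of them unless called counts, and the cause of a change was not tested except where the alternative's own construction shows it. With scaling to the mitochondrially encoded genes all tested genes had a median of -1.74 in MII over GV, 0.88 in Btg4tm over Btg4wt and 0.39 in Btg4wt over MII. In MII over GV, 18 replication-dependent genes and 10 variants were then called lower, with medians of -2.42 and -2.16, and the histone RNA and chaperone list had 34 lower and 0 higher. Among all genes 81.6% were called lower and 0.0501% higher. Negative values appeared for H1f1 (-1.55), H1f8 (-1.36), H3f3a (-1.34), H3f3b (-1.39), Slbp (-1.04), Asf1b (-1.14), Npm1 (-1.15), Dek (-0.60), Nap1l4 (-1.24), Casp8ap2 (-0.64) and Supt16 (-1.08). In Btg4tm over Btg4wt, 9 replication-dependent genes and 7 variants were called higher, with medians of 0.93 and 1.26, and the list had 1 lower and 14 higher. Among all genes 0.494% were called lower and 43.6% higher. Signs turned for H1f1 (0.16), H1f8 (0.78), H2bc1 (0.27), H3f3a (0.37), Asf1b (1.04), Npm1 (0.15), Dek (0.75) and Casp8ap2 (0.12). In Btg4wt over MII, 1 replication-dependent gene was called higher, beside 0.494% of all genes. The median of the variants was 0.36 there, and signs turned for H1f8 (0.30), H2ac1 (0.26), H2az1 (0.23), H2az2 (0.15), H2bc12 (0.10), H2bc4 (0.38), H3f3b (0.41), Asf1b (0.17), Npm1 (0.45), Dek (0.34) and Casp8ap2 (0.34). The summed TPM of replication-dependent genes became 1010 in GV, 140 in MII, 207 in Btg4wt and 507 in Btg4tm, and those of the variants 45412, 17165, 21554 and 38857.

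With TPM as deposited the sums were 496 in GV and 287 in MII for replication-dependent genes and 22285 and 35136 for variants, and H3f3b gave -0.004 in Btg4tm over Btg4wt. With quantile normalization the variant median was -0.049 in MII over GV. In Btg4tm, 2 of 19 replication-dependent genes, 1 of 10 variants and 17 of 48 on the list were then called lower. Among all 13968 genes 1813 were then called lower in Btg4tm, beside 1109 with median-of-ratios scaling. Signs turned under quantile normalization for H2ac1 (-0.17) and H2az1 (-0.079) in Btg4tm over Btg4wt and for Npm1 (0.012) in Btg4wt over MII. A pseudocount of 0.1 gave a replication-dependent median of -1.21 in MII over GV and 1 variant called lower in Btg4tm, beside 10.5% of all genes. With no minimum fold change, which widens the call by construction, 5 variants were lower and 3 higher in MII and 30 of the list higher. Of all 13968 genes, 4575 were then lower and 4168 higher in MII. In Btg4tm 1 replication-dependent gene, 2 variants and 27 of the list were then lower and 9 of the list higher, beside 3251 lower and 3666 higher of all genes. Keeping members with at least 80% unique 50-base stretches left 0 of 7 replication-dependent genes called lower in MII and 0 of 7 called higher in Btg4tm. Among all genes the shares were 24.0% and 18.1%, and H2ac6, H2bc9, H4c14 and H4c4 of the 7 were at low levels in GV. The medians were then -0.48 for variants in MII over GV, -0.21 for replication-dependent genes in Btg4tm over Btg4wt and 0.57 for them in Btg4wt over MII.

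Leaving out 1 library leaves 1 in its group, which is assumed to vary like the others. In MII over GV the medians ran from -0.88 to -0.52 for replication-dependent genes and from -0.44 to -0.01 for variants. In Btg4tm over Btg4wt they ran from 0.06 to 0.29 and from 0.10 to 0.24. The number of called genes also shifted with the library left out, for both classes and for the list. Single genes near 0 turned sign. In Btg4tm over Btg4wt the ranges were -0.35 to 1.11 for H1f10, -0.10 to 0.16 for H2ac1, -0.087 to 0.092 for H3f3b and -0.16 to 0.39 for Slbp. In Btg4wt over MII they were -0.25 to 0.35 for Lsm10, -0.38 to 0.069 for H2bc12, -0.17 to 0.008 for H3f3b, -0.066 to 0.34 for H1f0, -0.58 to 0.39 for H2bc4, -0.16 to 0.39 for Slbp and -0.22 to 0.14 for Npm1.

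A fit with the replicate number as a block changed 1 call among the named genes, H1f10 in MII over GV (adjusted p = 0.0556), which was also lost with quantile normalization (0.114), no filter (0.0536) and eBayes without trend (0.0581). The block left 6 replication-dependent genes called lower in MII and 4 higher in Btg4tm. Same-numbered libraries did not deviate together (correlations of -0.0539 to 0.0555 over genes), so the numbers pair no samples. Of the results on classes and lists, 315 values under an alternative stayed within the spread or 1.5 times the count and 50 moved. Of those on single genes, 911 kept sign and call, 25 lost a call, 29 gained one and 48 turned sign. These totals include Btg4wt over MII, where 0 of 13968 genes were called. There no call could be lost and a count of 0 that stayed 0 was scored as unchanged, so the totals overstate stability in the other comparisons. Depth is unknown, so counting error at levels near 1 TPM could not be had.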
